A study of Mus musculus with 20 samples.

Results

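Immediate early genes are transcribed within minutes of a stimulus, without new protein synthesis, and their transcripts in brain are widely used as a mark of recent neuronal activity. In neurons, calcium entry and MAP kinase signalling act through the CREB, SRF and MEF2 transcription factors already present in the nucleus, and the transcripts are then lost quickly. In the hypothalamus, which governs feeding, body temperature and the stress axis, Fos staining is a common way to find the nuclei that respond to a hormone, a fast or a drug. The set described here has 10 genes, Fos, Fosb, Junb, Egr1, Egr2, Nr4a1, Arc, Npas4, Ier2 and Klf4, out of 18704 genes measured. They were chosen by name, as the probe sets whose only gene symbol in the platform annotation is 1 of the 10, and each gene had 1 such probe set. Of the 10 genes, 8 passed the filter on dim genes and were tested, while Egr2 and Ier2 did not pass it.

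All mice were male C57BL/6J with diet-induced obesity: a diet with 45% fat was begun at 4 weeks of age and continued for 16 weeks. They were injected into the peritoneum with celastrol, a plant triterpenoid that lowers food intake in obese mice, or with dimethyl sulfoxide (DMSO), the vehicle that the celastrol mice also received, at 25 µl per day. Hypothalamus was taken at 6 h (3 DMSO and 4 celastrol arrays), 1 day (3 and 4) or 4 days (3 and 3), which gives 20 Affymetrix Mouse Gene 1.0 ST arrays in 6 groups. The labels print a celastrol dose of 250 µg/kg beside the 6 h time alone, describe replicates within a group as biological, and do not say whether an array holds 1 animal or a pool, so p-values measure the spread between these samples. Values are log2 intensities, and 1 unit is a doubling. The number of arrays limits the precision.

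Hypothalamic identity was checked on 24 neuropeptide and transcription factor markers. Of these, 23 were in the table. The brightest were Pmch at 12.94, Sst at 12.91 and Hcrt at 12.61, and dimmer ones included Nr5a1 at 8.63, Kiss1 at 7.81, Rax at 7.45 and Crh at 7.21. Every one of the 23 passed the filter, as did 14028 of 18704 genes in all. Markers of neighbouring tissue passed it as well, 10 of the 11 of cortex and hippocampus in the table, such as Lamp5 at 9.33 and Prox1 at 9.45, and 4 of the 7 of pituitary, such as Cga at 9.13 and Lhb at 8.36. Neurod6 (5.77), Prl (6.51), Tshb (6.08) and Fshb (7.04) did not pass. Medians of the arrays lay between 8.60 and 8.65. DMSO at 6 h replicate 3 and DMSO at 1 day replicate 3 stood apart from the other arrays. On the first principal component of the deviations from group means, which held 24.8% of the variance, they scored 11.4 and 9.49 and the other arrays between -6.11 and 5.28. Neither an array batch nor a scan date is given in the labels, and none was modelled.

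The promoters of 4 of these genes are shown because the covariation of their transcripts across arrays is among the results. Each window runs from 250 bases before to 50 after a transcript start in RefSeq on GRCm38.p6, on the gene's own strand, and the starts used for Nr4a1 and Npas4 lie inside the gene spans given later: Fos at chr12:85473640-85473939 (plus strand), Junb at chr8:84978699-84978998 (minus), Nr4a1 at chr15:101266596-101266895 (plus) and Npas4 at chr19:4989922-4990221 (minus). Capitals mark TGACG, the core of the CREB response element, on either strand (CGTCA on the reverse strand), and TATAAA on the given strand.
Fos: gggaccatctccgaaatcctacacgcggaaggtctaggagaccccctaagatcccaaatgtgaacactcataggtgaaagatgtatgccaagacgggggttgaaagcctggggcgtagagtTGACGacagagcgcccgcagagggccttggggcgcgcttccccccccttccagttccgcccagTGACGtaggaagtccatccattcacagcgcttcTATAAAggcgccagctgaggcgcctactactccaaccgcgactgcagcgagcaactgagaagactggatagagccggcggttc
Junb: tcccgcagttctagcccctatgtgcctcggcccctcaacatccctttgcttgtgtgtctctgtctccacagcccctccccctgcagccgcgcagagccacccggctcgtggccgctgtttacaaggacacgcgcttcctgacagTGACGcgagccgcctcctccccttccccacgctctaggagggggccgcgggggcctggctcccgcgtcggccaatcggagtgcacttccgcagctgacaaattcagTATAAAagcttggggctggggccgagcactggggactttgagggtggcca
Nr4a1: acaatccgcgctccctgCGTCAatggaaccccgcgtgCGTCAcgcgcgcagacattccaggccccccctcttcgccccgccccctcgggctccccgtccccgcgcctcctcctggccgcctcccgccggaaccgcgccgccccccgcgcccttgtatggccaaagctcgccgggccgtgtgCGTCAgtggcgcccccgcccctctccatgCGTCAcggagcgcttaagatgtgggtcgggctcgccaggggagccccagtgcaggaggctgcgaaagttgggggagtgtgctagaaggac
Npas4: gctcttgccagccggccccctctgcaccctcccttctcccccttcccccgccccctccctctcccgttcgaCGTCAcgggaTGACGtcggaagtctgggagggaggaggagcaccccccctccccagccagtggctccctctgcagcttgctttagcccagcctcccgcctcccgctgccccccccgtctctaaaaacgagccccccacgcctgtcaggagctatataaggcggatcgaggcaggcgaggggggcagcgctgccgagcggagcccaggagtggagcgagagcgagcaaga

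Windows were found for 7 of the 10 genes (11 windows, 5 of them for Egr2). Each of those 7 genes had at least 1 TGACG in a window: Fos 2, Junb 1, Nr4a1 4, Npas4 2, Klf4 1, Fosb 1 and Egr2 2. The Egr2 count is the highest over its 5 windows, some of which held 0. For comparison, 20.8% of 32851 RefSeq windows held at least 1 copy, 5.01% at least 2 and 0.231% at least 4. In Fos the copies begin 129 and 66 bases before the start, followed by TATAAA 33 bases before it. In Nr4a1 all 4 copies read CGTCA on the given strand, at 233, 213, 69 and 40 bases before the start. In Npas4 the copies at 179 and 169 bases lie on opposite strands. The full palindrome TGACGTCA, which contains TGACG on both strands, was in none of the windows of these genes and in 1.79% of all windows. The CArG box, the sequence SRF binds, was in 4 of the 5 Egr2 windows and in 1.63% of all windows. In 3 of those 4, which overlap, it is the same site, and in the other it is a separate one. The windows of Fos, Fosb, Junb, Klf4, Nr4a1 and Npas4 held 0. Sequence beyond the windows was not searched, and Egr1 had no window. TATAAA was in the Fos and Junb windows and in 8.32% of all windows. These are matches of letters, not sites at which binding was measured.

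Celastrol did not detectably change any of the 8 tested immediate early genes at any of the 3 times. Nothing was sampled before 6 h, so earlier changes were not measured. At 6 h, 0 of the 8 passed limma's adjusted p threshold of 0.05, and 0 of the 14028 genes tested did (0%). At 1 day 0 of the 8 passed, where 60 genes did (0.428%), and at 4 days 0 of the 8 passed, where 11 did (0.0784%). The largest fold that any of the 8 intervals still allows, in either direction, was 1.32 at 6 h, 1.29 at 1 day and 1.41 at 4 days, the last for Npas4. Each interval is for a single gene, so these are not a joint bound on the 8. They bound array signal, which can be compressed at low intensity. Larger changes in the transcript of a dim gene such as Fos are therefore not excluded. In whole tissue, fewer cells of a type and less RNA per cell cannot be told apart.

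Before adjustment, limma's p was under 0.05 for 2 of the 8 genes at 6 h (Egr1 and Klf4; 7.53% of all genes tested), for 1 at 1 day (Arc; 8.18%) and for 1 at 4 days (Klf4; 6.57%). The celastrol and DMSO arrays did not overlap for the same genes, 2 at 6 h (6.3% of all genes), 1 at 1 day (7.84%) and 1 at 4 days (14.4%). Of the 8 genes, 7 were higher with celastrol at 6 h, with a median difference of 0.06 against -0.02 over all genes tested. The counts were 5 higher at 1 day (median 0.05 against 0.01 over all genes) and 5 higher at 4 days (0.05 against 0.01).

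**Figure D1:**
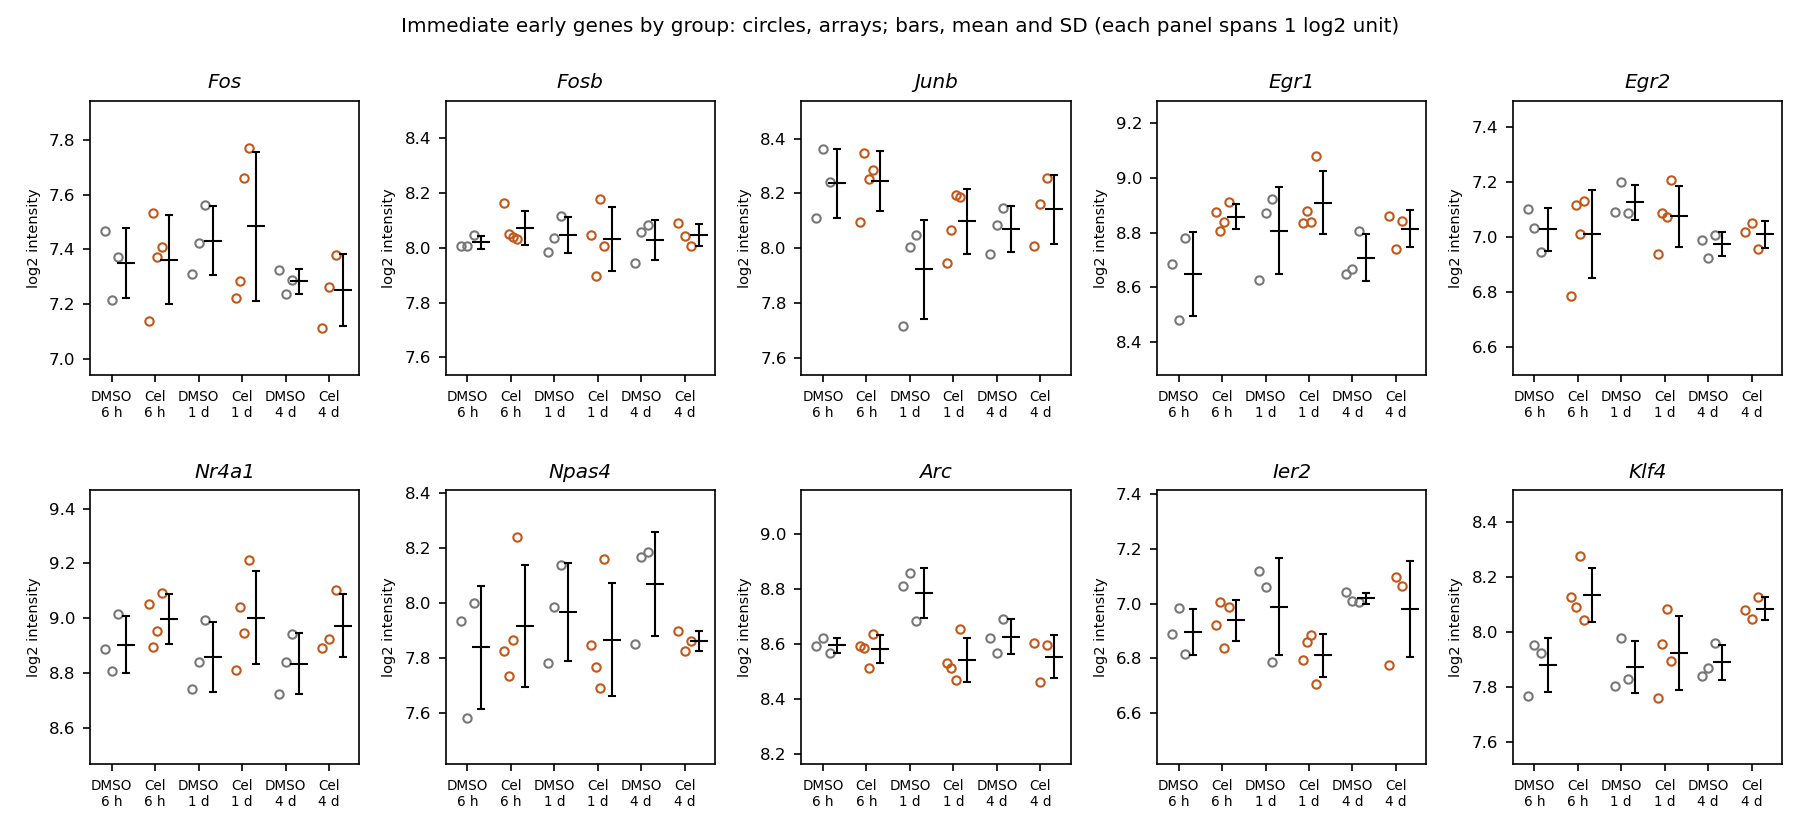
Log2 intensity of the 10 immediate early genes on the 20 arrays (vertical axis, 1 log2 unit in every panel), by treatment and time (horizontal axis); circles are arrays (grey DMSO, orange celastrol), with the group mean and SD beside them. Celastrol and DMSO arrays do not overlap for Egr1 and Klf4 at 6 h, Arc at 1 day and Klf4 at 4 days.

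Fos, Fosb and Junb encode subunits of AP-1, the dimeric transcription factor of the Fos and Jun families. Fos (chromosome 12, 85473890 to 85477274, GRCm38.p6) read 7.47, 7.21 and 7.37 with DMSO and 7.14, 7.53, 7.37 and 7.41 with celastrol at 6 h. At 1 day it read 7.31, 7.42 and 7.56 with DMSO and 7.22, 7.28, 7.66 and 7.77 with celastrol. At 4 days it read 7.33, 7.24 and 7.29 against 7.11, 7.26 and 7.38. The groups overlapped at every time, and at 1 day the celastrol arrays split into a lower and a higher pair, with an SD of 0.271 (n = 4). The difference, celastrol minus DMSO, was 0.01 ± 0.115 (SE) at 6 h, 0.05 ± 0.115 at 1 day and -0.03 ± 0.123 at 4 days, with limma adjusted p of 0.986, 0.947 and 0.988. At 6 h the interval of the fold ran from 0.853 to 1.19. Fos was dim, with a mean of 7.37 just above the filter at 7.07.

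Junb (chromosome 8, 84976909 to 84978748), whose product pairs with Fos proteins, read 8.11, 8.36 and 8.24 with DMSO at 6 h, 7.72, 8.01 and 8.05 at 1 day and 7.98, 8.08 and 8.15 at 4 days. With celastrol it read 8.09, 8.35, 8.25 and 8.29, then 7.95, 8.07, 8.20 and 8.19, then 8.01, 8.16 and 8.26. Its lowest array was DMSO at 1 day replicate 1. The difference at 1 day was 0.18 ± 0.0873 (limma adjusted p = 0.62), and the groups overlapped. Fosb (chromosome 7, 19302696 to 19310118), whose short splice form accumulates under chronic stimulation, stayed between 7.90 and 8.18 on all 20 arrays, with differences of 0.05, -0.01 and 0.02 at the 3 times.

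Egr1 and Egr2 encode zinc finger factors of the EGR family, and Klf4 a Krüppel-like zinc finger factor that is also prominent in vascular endothelium. Egr1 (chromosome 18, 34861207 to 34864956) read 8.69, 8.48 and 8.78 with DMSO at 6 h and 8.88, 8.81, 8.84 and 8.91 with celastrol. Every celastrol array was above every DMSO array at that time, and the difference was 0.21 ± 0.0775, a fold of 1.16 (95% confidence interval 1.03 to 1.29; limma adjusted p = 0.632). At 1 day the arrays read 8.63, 8.87 and 8.92 against 8.84, 8.88, 8.84 and 9.08, and at 4 days 8.65, 8.67 and 8.81 against 8.86, 8.74 and 8.84. The groups overlapped at both later times, with differences of 0.10 and 0.11. Of 10 thalamic markers, 9 were lower with celastrol at 6 h, with a list mean per array of 9.83 to 10.25 with DMSO and 9.73 to 9.87 with celastrol, none passed the test, and their part in the result was not tested. Without the pair of arrays that stood apart, the 6 h difference was 0.27 (adjusted p = 0.999; 0.359 to 1 over the alternatives run).

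Klf4 (chromosome 4, 55527137 to 55532475) read 7.77, 7.95 and 7.92 with DMSO at 6 h and 8.13, 8.09, 8.28 and 8.05 with celastrol. At 4 days it read 7.84, 7.87 and 7.96 against 8.08, 8.05 and 8.13, and at 1 day 7.80, 7.98 and 7.83 against 7.76, 7.96, 8.09 and 7.89. All celastrol arrays lay above all DMSO arrays at 6 h and at 4 days, and the groups overlapped at 1 day. The difference was 0.25 ± 0.0707 at 6 h, a fold of 1.19 (95% confidence interval 1.08 to 1.32; limma adjusted p = 0.541). It was 0.05 ± 0.0707 at 1 day and 0.20 ± 0.0756 at 4 days (adjusted p = 0.896 and 0.646). Of 9 endothelial markers tested, 7 were lower with celastrol at 6 h and 7 at 4 days, and the list's mean per array ran from 9.43 to 9.67 with DMSO and from 9.43 to 9.50 with celastrol at 6 h. Mural cell markers were higher for 5 of 8 at both times, and their part in the result was not tested.

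Egr2 (chromosome 10, 67534469 to 67542188) had a mean of 7.04, just under the filter, and ranged from 6.78 to 7.21. Tested with no filter, its differences were -0.02, -0.05 and 0.04 at the 3 times, with limma adjusted p of 0.967, 0.916 and 0.997.

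**Figure D2:**
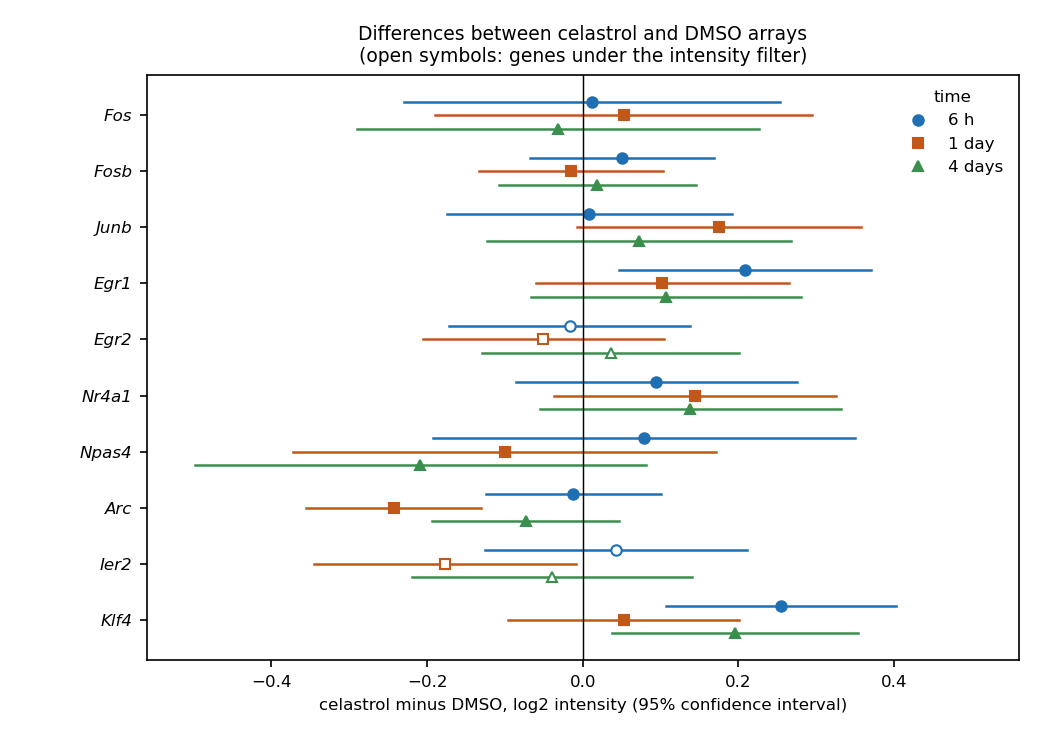
Difference between celastrol and DMSO arrays for the 10 immediate early genes (vertical axis), in log2 intensity (horizontal axis), with 95% confidence intervals as lines; blue circles are 6 h, orange squares 1 day and green triangles 4 days, and open symbols mark Egr2 and Ier2, which were under the intensity filter. Most intervals span 0, and those that do not are Egr1 and Klf4 at 6 h, Arc and Ier2 at 1 day and Klf4 at 4 days, none with an adjusted p under 0.05.

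Arc encodes an activity-regulated cytoskeletal protein that acts at synapses on AMPA receptor trafficking, and is an effector rather than a transcription factor. Arc (chromosome 15, 74669081 to 74672570) read 8.81, 8.86 and 8.68 with DMSO at 1 day and 8.53, 8.51, 8.47 and 8.65 with celastrol. It read 8.59, 8.62 and 8.57 against 8.59, 8.59, 8.51 and 8.64 at 6 h, and 8.62, 8.57 and 8.69 against 8.60, 8.46 and 8.60 at 4 days. The 1 day groups did not overlap, and the highest arrays were a pair of DMSO arrays at 1 day; the other groups of arrays lay between 8.46 and 8.69. The 1 day difference was -0.24 ± 0.0536, so the celastrol level was 0.845 times the DMSO level (95% confidence interval 0.782 to 0.913; limma adjusted p = 0.0525). This was the smallest adjusted p of the 8 genes in any of the comparisons between treatments, and over the alternatives run it ranged from 0.00508 to 0.349, with values of -0.29 to -0.21. Without the pair of arrays that stood apart it was -0.29 (adjusted p = 0.0413). Markers of cortex and hippocampus, where Arc is abundant, were lower for 7 of 10 tested at 1 day, with a list mean per array of 8.62 to 8.71 with DMSO and 8.59 to 8.64 with celastrol. None of the 10 passed the test in that comparison, Neurod6 was under the filter, and the list's part in the Arc result was not tested.

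Nr4a1, an orphan nuclear receptor, and Npas4, a basic helix-loop-helix factor that in neurons responds selectively to calcium entry, are both induced by depolarization. Nr4a1 (chromosome 15, 101253902 to 101274795) read 8.89, 8.81 and 9.01 with DMSO and 9.05, 8.89, 8.95 and 9.09 with celastrol at 6 h. At 1 day it read 8.74, 8.84 and 8.99 against 8.81, 9.04, 8.95 and 9.21, and at 4 days 8.72, 8.84 and 8.94 against 8.89, 8.92 and 9.11. The groups overlapped each time, and the celastrol mean was the higher by 0.09, 0.14 and 0.14, with limma adjusted p of 0.786, 0.688 and 0.873.

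Npas4 (chromosome 19, 4984353 to 5003439) read 7.94, 7.58 and 8.0 against 7.82, 7.73, 7.86 and 8.24 at 6 h. It read 7.78, 7.98 and 8.14 against 7.85, 7.77, 7.69 and 8.16 at 1 day, and 7.85, 8.17 and 8.19 against 7.90, 7.82 and 7.86 at 4 days. The groups overlapped at every time. The differences were 0.08 ± 0.130, -0.10 ± 0.130 and -0.21 ± 0.139, and limma's adjusted p was 0.894, 0.891 and 0.873.

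Ier2 (chromosome 8, 84661331 to 84662852), a small nuclear protein induced by growth factors, had a mean of 6.93, under the filter. At 1 day it read 7.12, 7.06 and 6.79 with DMSO and 6.80, 6.86, 6.88 and 6.71 with celastrol, and the groups overlapped through DMSO replicate 3. Tested with no filter, the difference was -0.18 (limma adjusted p = 0.603).

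Averaged over the 3 times with equal weight, 0 of the 8 genes passed (0.577% of all genes did), and limma's p before adjustment was under 0.05 for 4 of them (8.81% of all genes). Klf4 was higher by 0.17 ± 0.0418 (adjusted p = 0.0817), Egr1 by 0.14 ± 0.0458 (0.266) and Nr4a1 by 0.13 ± 0.0510 (0.447), and Arc was at -0.11 ± 0.0317 (0.172). The Fos average was 0.01 ± 0.0682.

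Whether the treatment difference itself changed with time was tested by interaction terms. None of the 8 genes passed for 1 day against 6 h (0.00713% of all genes passed), 4 days against 6 h (0.0143%) or 4 days against 1 day (0.00713%). Arc was the only 1 of the 8 with limma's unadjusted p under 0.05 for 1 day against 6 h (10.2% of all genes) and for 4 days against 1 day (2.48%), and there was none for 4 days against 6 h (7.68%). Its treatment difference at 1 day minus that at 6 h was -0.23 ± 0.0759 (limma adjusted p = 0.403). The absence of Klf4's difference at 1 day is therefore not shown to be a change: its contrast of 1 day against 6 h was -0.20, with an adjusted p of 0.496.

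Within DMSO arrays, the 6 h group was compared with the mean of the 1 day and 4 day groups. None of the 8 genes passed (0.47% of all genes did), and 2 were under 0.05 before adjustment (12.5%). Junb differed by 0.24 ± 0.0809, 6 h minus later (limma adjusted p = 0.21), and Arc by -0.11 ± 0.0497 (adjusted p = 0.358). Of 10 thalamic markers, 9 were higher at 6 h in this comparison and 2 passed, with a median of 0.26, and their list mean per array ran from 9.83 to 10.25 at 6 h, 9.69 to 9.86 at 1 day and 9.71 to 9.74 at 4 days. Their part in the values of this comparison was not tested. In the same comparison of celastrol arrays 0 of the 8 passed (0.841% of all genes) and 1 was under 0.05 before adjustment (21.7%), Klf4 at 0.13 ± 0.0583 (limma adjusted p = 0.205).

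The genes differed in how much they varied between arrays of 1 group. Npas4 had a within-group SD of 0.192, above that of 98.5% of the genes tested, and Fos 0.170, above 97%. Junb (0.125), Nr4a1 (0.124) and Egr1 (0.109) were above 86.0%, 85.2% and 77.1%, Klf4 (0.0979) above 68.4%, and Fosb (0.0735) and Arc (0.0683) above 41.3% and 34.2%.

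Egr1, Npas4 and Nr4a1 varied together from array to array. With every value expressed as its deviation from its group mean, Egr1 and Npas4 had a Pearson r of 0.82 over 20 arrays (Spearman rho 0.83; permutation p = 4e-05, adjusted 0.0018 over the 45 pairs of the 10 genes). Egr1 and Nr4a1 had an r of 0.80 (rho 0.81; permutation p = 0.00041, adjusted 0.00922) and Nr4a1 and Npas4 an r of 0.72 (rho 0.74; permutation p = 0.00235, adjusted 0.0352). The third of these is the least firm: its adjusted p was under 0.05 in 8 of the 20 fits that each leave out 1 array, and reached 0.176, with an r of 0.63, without celastrol at 1 day replicate 4. It was 0.0917 without the pair of arrays that stood apart and 0.0594 without the 2 arrays farthest from the median of Fos. The adjusted p of Egr1 with Nr4a1 was 0.0718 without celastrol at 1 day replicate 4 and 0.0649 without those 2 arrays. Without the 2 arrays farthest from the median of the first gene, r was 0.74, 0.69 and 0.75. Egr1 and Npas4 lay on the same side of their group means on 18 of 20 arrays, Egr1 and Nr4a1 on 15 and Nr4a1 and Npas4 on 15. Over the 9 DMSO arrays r was 0.88, 0.88 and 0.91, and over the 11 celastrol arrays 0.79, 0.79 and 0.60, as descriptions of those arrays. Celastrol at 1 day replicate 4 was the highest array of its group for Egr1 (9.08), Nr4a1 (9.21), Npas4 (8.16) and Fos (7.77). These 3 pairs were singled out after all 45 had been seen, and permutations moved arrays only within groups.

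**Figure D3:**
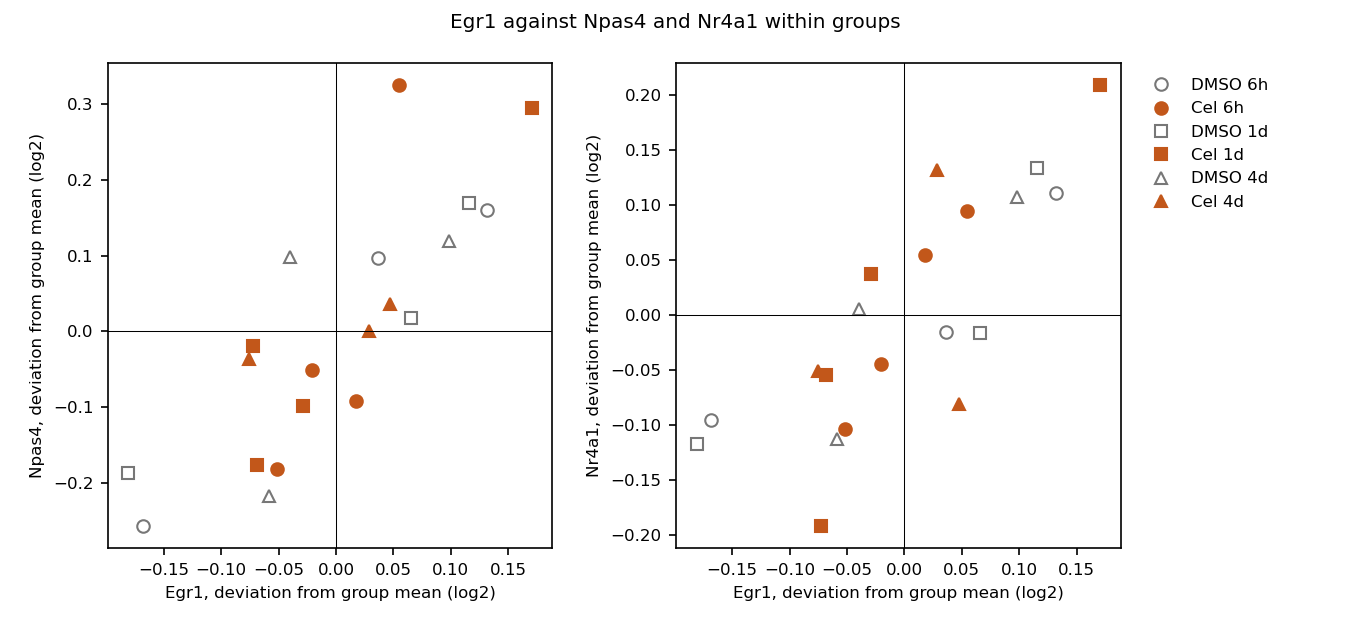
Deviation of Npas4 (left) and Nr4a1 (right) from the group mean (vertical axes, log2) against that of Egr1 (horizontal axes, log2) on the 20 arrays; open grey symbols are DMSO and filled orange symbols celastrol, with circles for 6 h, squares for 1 day and triangles for 4 days. Over the 20 arrays r was 0.82 and 0.80. It was 0.88 for both pairs with DMSO and 0.79 for both with celastrol, and a difference between treatments was not tested.

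Fos had lower correlations than the pairs among Egr1, Npas4 and Nr4a1, a difference that was not tested. Of its 9 pairs, none passed after adjustment over the 9, and 2 had a permutation p under 0.05 before it: Junb with an r of 0.60 (rho 0.61; p = 0.0162, adjusted 0.139) and Egr2 with 0.61 (rho 0.43; p = 0.0308, adjusted 0.139). Without the 2 arrays farthest from the median of Fos, both from celastrol at 1 day, these were 0.53 and 0.44. The correlations of Fos with Nr4a1 (0.46) and Egr1 (0.44) dropped to 0.14 and 0.25 without those arrays. Of the 45 pairs, 35 had r above 0 and 10 below, with a median of 0.14. The lowest was Egr1 with Ier2 at -0.63 (rho -0.64; permutation p = 0.0161, adjusted 0.126).

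**Figure D4:**
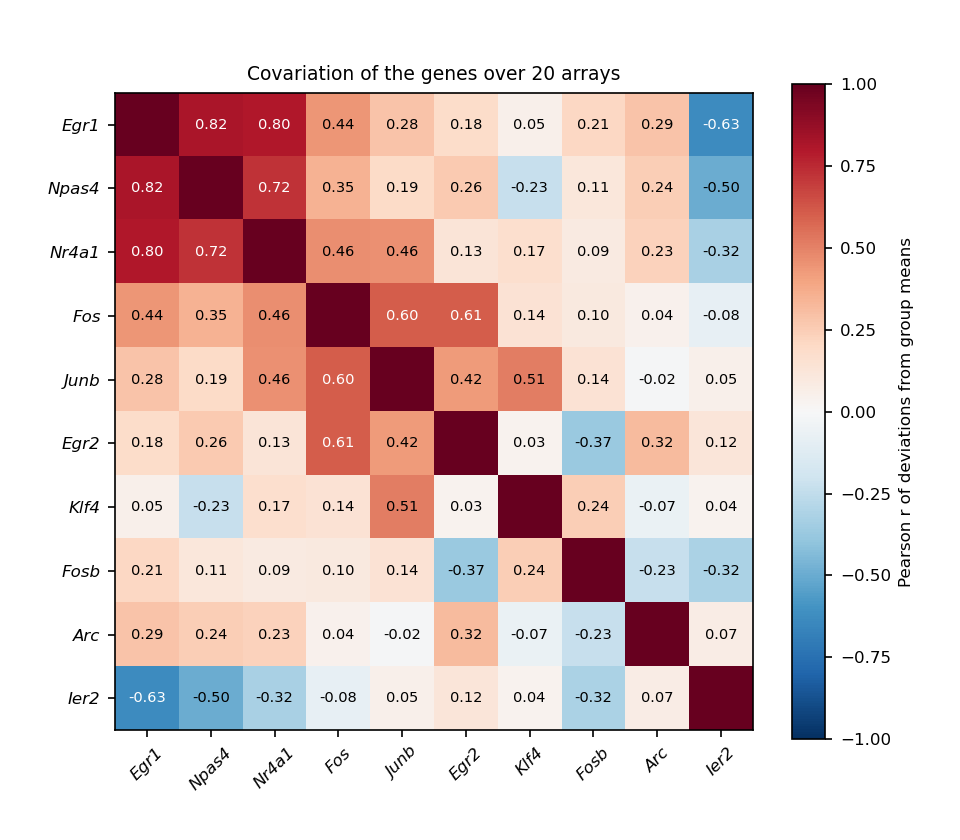
Pearson r between the deviations from group means of each pair of the 10 immediate early genes over 20 arrays (rows and columns are genes; red above 0, blue below 0). Egr1, Npas4 and Nr4a1 form the block of highest values, from 0.72 to 0.82. Fos is closest to Junb and Egr2, and the lowest value is Egr1 with Ier2 at -0.63. None of the pairs in the last sentence passed after adjustment.

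The array component that set the pair of DMSO arrays apart was compared with each of the 10 genes. None passed after adjustment over the 10, and the closest were Egr2 (r = -0.57, rho -0.57, permutation p = 0.00564, adjusted 0.0564) and Ier2 (r = -0.67, rho -0.70, permutation p = 0.0126, adjusted 0.063). Without those 2 arrays r was -0.64 for Egr2 and -0.48 for Ier2. Fos had an r of -0.25 with all 20 arrays (permutation p = 0.314) and -0.78 without the 2 (permutation p = 0.00733). Junb had -0.07 (permutation p = 0.818) and -0.50 (permutation p = 0.0614). Egr1, Npas4 and Nr4a1 had r of 0.48, 0.36 and 0.31 with all 20 arrays, and 0.09, 0.06 and -0.15 without the 2. Without the 2, the r of Egr1 was 0.78 with Npas4 and 0.74 with Nr4a1 (permutation, adjusted p = 0.0153 and 0.0351). The part of this component in the covariation of Egr1, Npas4 and Nr4a1, or of Fos with Junb and Egr2, was not tested. The mean levels of 14 lists of cell type and region markers were also compared with Fos, Egr1, Nr4a1 and Npas4, and over all 20 arrays none of these relations had a permutation p under 0.05. Without the 2 arrays whose list mean deviated farthest from the median, 1 of them did, Fos with ependymal and tanycyte markers (r = -0.46, permutation p = 0.0347), against an r of -0.21 with all arrays (rho -0.22; permutation p = 0.381, adjusted 0.687).

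Genes outside the set were ranked by their correlation with the mean scaled deviation of the 8 tested genes over 20 arrays, as a description with no test. The closest 10 were Fcf1 (r = 0.82), Ak1 (0.77), Per2 (0.76), Rrm2b (0.76), Ocln (0.76), Srek1 (0.76), Dnaja3 (0.75), Ndufaf5 (0.75), Ninj1 (0.75) and Faxc (0.74). Over all 14020 other genes the median r was 0.03, and 2.28% were above 0.5. Among 21 other rapid response genes the median was 0.15, with Btg2 (0.72), Jun (0.58) and Nr4a3 (0.52) above 0.5, while Egr3 (-0.54) and Ier3 (-0.51) ran the other way. This was not particular to that list. The median was 0.18 for activity-induced effectors (3 of 21 above 0.5) and 0.18 for MAP kinase feedback inhibitors (1 of 12). For upstream regulators it was 0.17 (0 of 18) and for glucocorticoid targets 0.09 (0 of 15).

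In 3 related lists 7 genes were higher with celastrol than with DMSO at 1 day, past the threshold. Most members of each list did not pass the test. These are differences between treatments at the same time, not changes from 6 h. From 6 h to 1 day Csrnp1 went from 8.10 to 7.76 with DMSO and from 8.12 to 8.06 with celastrol. Ptgs2 went from 8.05 to 7.65 with DMSO and from 8.31 to 8.69 with celastrol. Among 21 tested of 23 other rapid response genes, mostly transcription factors, 16 were higher with celastrol and 5 lower at 1 day. Of these, 3 passed the threshold, all of them higher (0.428% of all genes tested passed). The median was 0.07 against 0.01 over all genes tested. Trib1, a pseudokinase that directs protein degradation, was higher by 0.47 ± 0.0831 (limma adjusted p = 0.0123). Csrnp1, a nuclear factor, was higher by 0.30 ± 0.0559 (limma adjusted p = 0.019). Zfp36, which promotes decay of AU-rich transcripts, was higher by 0.39 ± 0.0834 (limma adjusted p = 0.0434). In 20 fits that each omit 1 array, Trib1 passed in 18, Csrnp1 in 15 and Zfp36 in 5. Without DMSO at 1 day replicate 3 none of them passed (adjusted p = 0.0705, 0.0888 and 0.12), nor did any without replicate 2 of that group (0.08, 0.0635 and 0.193). Csrnp1 also failed to pass without DMSO replicate 1 (0.111) and celastrol replicates 3 (0.0827) and 4 (0.0604) at 1 day. Averaged over the times 4 were higher with celastrol past the threshold (0.577% of all genes passed). They were these 3 and Ier3, at 0.24 (limma adjusted p = 0.0437), which passed in 6 of the 20 fits that leave out an array. At 6 h and 4 days none of the list passed. In the interaction terms no gene of the 3 lists passed (0.00713% to 0.0143% of all genes did). The differences are therefore not shown to be particular to 1 day. Csrnp1, for instance, was also higher by 0.24 at 4 days.

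Among 21 activity-induced effector genes, 10 were higher with celastrol and 11 lower at 1 day, with a median of -0.01 against 0.01 over all genes tested. Of these, 3 passed, all of them higher (0.428% of all genes passed). Ptgs2, the inducible prostaglandin synthase that excitatory neurons also express on activity, read 7.65 ± 0.172 (SD, n = 3) with DMSO and 8.69 ± 0.225 (n = 4) with celastrol. The difference was 2.04-fold (limma adjusted p = 0.00237), and it passed without any 1 of the 20 arrays. Rasd1, a small G protein induced by glucocorticoids, was higher by 0.36 ± 0.0609 (limma adjusted p = 0.00839, and 0.0558 without DMSO at 1 day replicate 2). Tiparp, a mono-ADP-ribosyltransferase, was higher by 0.39 ± 0.0819 (limma adjusted p = 0.0378, and 0.224 without DMSO at 1 day replicate 1). It passed in 10 of 20 fits that leave out an array. The synaptic and secreted effectors in this list, among them Bdnf, Homer1, Nptx2 and Vgf, did not pass.

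Of 12 feedback inhibitors of MAP kinase signalling, 6 were higher with celastrol and 6 lower at 1 day, with a median of -0.01. Of these, 1 passed, and it was higher (0.428% of all genes passed). Errfi1, an inhibitor of the EGF receptor and also a glucocorticoid target, was higher by 0.53 ± 0.104 (limma adjusted p = 0.0262). None of the DUSP phosphatases, Sprouty or Spred genes passed. Errfi1 lost its call without any of the 3 DMSO arrays at 1 day (adjusted p = 0.15, 0.0635 and 0.0906) and without celastrol replicates 2 (0.0857) and 3 (0.0966). Of 18 upstream regulators tested, which include the CREB, SRF and MEF2 factors and their kinases, 14 were higher and 4 lower (median 0.05) and none passed; the kinase gene Rps6ka3 had the smallest p, with a difference of 0.15 and an adjusted p of 0.372. Other genes of this list, among them Mapk3, Rps6ka1 and Rps6ka2, were not analysed here. For reference, 15 of 15 glucocorticoid target genes were higher with celastrol than with DMSO at 1 day. Of these, 9 passed (0.428% of all genes passed), with a median of 0.68 against 0.01 over all genes tested. Their mean per array at 1 day ran from 9.97 to 10.11 with DMSO and from 10.57 to 10.74 with celastrol. At 6 h it ran from 10.29 to 10.73 with DMSO and from 10.46 to 10.65 with celastrol. The DMSO level was thus lower at 1 day than at 6 h, and the celastrol ranges overlapped. The part of these genes in the other lists' differences was not tested. In the comparison of DMSO at 6 h with the later DMSO arrays, Csrnp1 was higher at 6 h by 0.27 (limma adjusted p = 0.0258) and Rasd1 by 0.26 (0.0467), as were 3 of the 15 glucocorticoid targets past the threshold (0.47% of all genes passed). Csrnp1 read 8.10 at 6 h, 7.76 at 1 day and 7.88 at 4 days with DMSO, and Rasd1 8.70, 8.42 and 8.46. The thalamic markers given above moved in the same comparison. Without DMSO at 6 h replicate 3 the adjusted p was 0.143 for Csrnp1 and 0.194 for Rasd1, and over the alternatives run it reached 0.226 and 0.258.

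**Figure D5:**
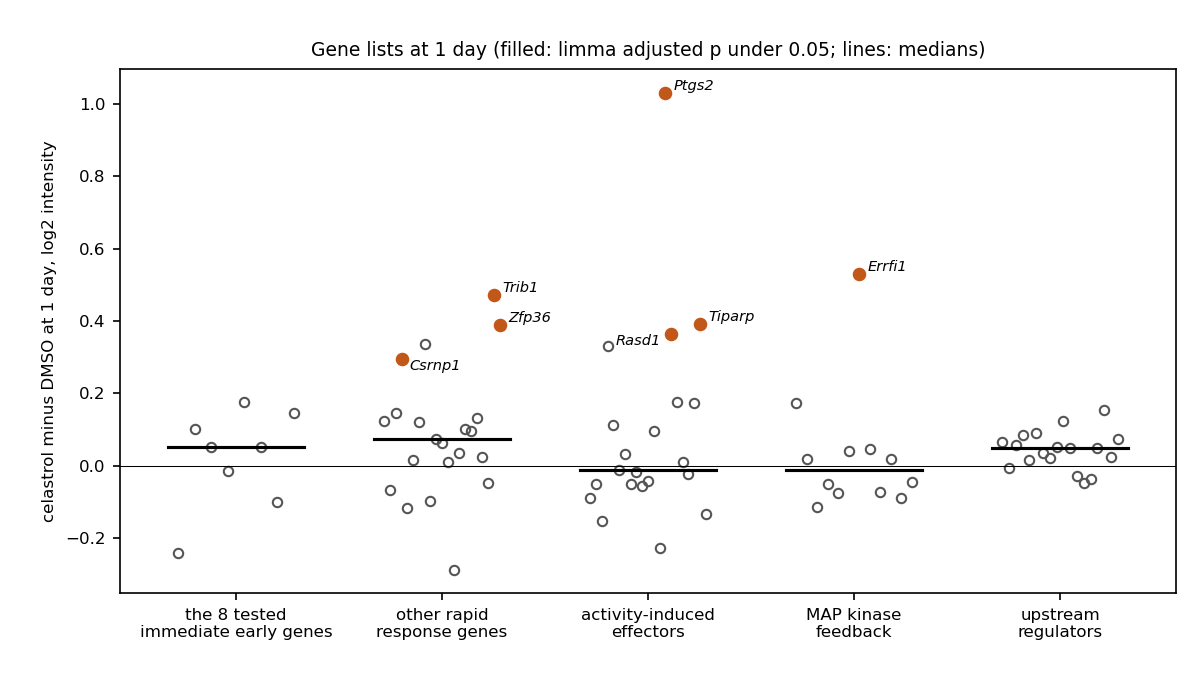
Difference between celastrol and DMSO at 1 day (vertical axis, log2 intensity) for the 8 tested immediate early genes and the tested genes of 4 related lists (horizontal axis); each circle is a gene, filled where limma's adjusted p was under 0.05, and lines are medians. No immediate early gene is filled, and Ptgs2 stands highest at 1.03.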

How the data were processed

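RNA of hypothalamus was hybridised to 20 arrays in 6 groups. The authors deposited log2 intensities for 23492 probe sets made with RMA, per the submitters' processing notes, which background-corrects, quantile normalizes and summarises probe sets; its version is not given in the sources used here. Values can be compressed at low intensity. In the platform annotation 20228 probe sets have 1 gene symbol, 1399 have several and 1865 have none; of the 20228, 20182 were matched to RefSeq by Entrez ID. Of 18704 genes, 809 had more than 1 probe set, and the brightest stood for the gene. Genes with a mean under the 25th percentile (7.07) were left out, which left 14028.

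Group means were fitted to all 20 arrays with limma 3.58.1 in R 4.3.3 (eBayes, 14 residual and 4.95 prior degrees of freedom). Tests were two-sided, with Benjamini-Hochberg adjustment over the 14028 genes in each of 9 comparisons and a threshold of 0.05. Every adjusted p comes from this fit unless a permutation is named. Correlations used deviations from group means and 100000 permutations within groups, whose smallest possible p is 1e-05. The limma and permutation steps were tested on simulated data. No pair of arrays held identical values (array correlations 0.994 to 0.998).

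The genes and the lists were chosen with earlier results of these data known. Named are all 10 genes, in each list up to 4 members past the threshold or else the 1 with the smallest p at 1 day, and the 10 other genes whose deviations were most like theirs; other list members named as examples were chosen after their values were seen. Promoter windows are from RefSeq; Egr1, Arc and Ier2 have none here. Alternatives were no filter, the filter over all probe sets, the mean of a gene's probe sets, arrays centred or quantile normalized again, array weights, an intensity trend, only the groups compared, replicate number as a block, each array left out, and both arrays that stood apart left out; the last, and the filter over all probe sets, were added after seeing the data.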

Additional observations from a re-analysis of the deposited data

Results flagged for a closer look

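Fosb on celastrol at 6 h replicate 1 read 8.16, while the other 3 arrays of that group read between 8.03 and 8.05. The gap to the nearest array was 0.843 of the group's whole range. Of 20 combinations of a gene and a group of 4 arrays examined in this way, 1 stood out, and chance gives about 1 in 20.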

How the results depend on the processing

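None of the 8 tested genes passed the threshold in the reported fit, so there was no passing result to reverse. Among 2160 values of these genes recomputed under the alternatives, 107 changed sign with neither fit past the threshold (none larger than 0.103 as reported). Another 12 passed it, with the sign as reported. Arc at 1 day accounts for 9 of the 12: 1 of the genes passed at that time with arrays quantile normalized again (adjusted p = 0.0387), with array weights (0.00508), with the replicate block (0.027) and without both arrays that stood apart (0.0413, added after seeing the data), and 0 to 1 passed when an array was left out. Klf4 in the average over the times accounts for 2: 1 gene passed with the replicate block (0.0314), and 0 to 1 when an array was left out (0.0363 without celastrol at 1 day replicate 1). Junb accounts for the last, in DMSO at 6 h against later DMSO arrays, where 1 gene passed with the replicate block (0.0335). The cause was not tested.

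Correlations between same-numbered DMSO and celastrol arrays of the same time ran from -0.286 to 0.287 over 9 pairs, and 1 was over 0.1. Of the DMSO arrays, 1 correlated best with the celastrol array of its own number. The labels do not tie the replicate number to a batch or a pairing. Same numbers were not compared across times, and both arrays that stood apart were replicate 3, so a shared batch was not tested. The replicate block changed no other call of the 8 tested genes. Of the pairs with Fos, 0 to 1 passed when an array was left out, Junb with r = 0.74 (adjusted p = 0.0257) without DMSO at 6 h replicate 1 and 0.75 (0.0167) without replicate 2. Egr1 with Npas4 stayed under an adjusted p of 0.05 in all 20 such fits, Egr1 with Nr4a1 in 19 (0.0718 without celastrol at 1 day replicate 4) and Nr4a1 with Npas4 in 8 (0.00562 to 0.176).

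Counts over all genes moved with single arrays and settings: 0 to 6 at 6 h, 18 to 191 at 1 day, 0 to 23 at 4 days, 40 to 160 for the average, 0 to 4, 0 to 3 and 1 for the differences between times, 1 to 119 for DMSO arrays and 6 to 740 for celastrol arrays. Other rapid response genes past the threshold at 1 day numbered 0 to 4, effectors 1 to 5 and MAP kinase inhibitors 0 to 1. Egr2 and Ier2 lie under the filter, where values can be compressed, so their differences are to be read with care. No background level was measured.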
